A study of Mus musculus with 6 samples.

Results

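The small leucine-rich proteoglycans are secreted matrix proteins, and 8 of them were examined with versican, a large proteoglycan of the same matrix. The 9 genes are Dcn (decorin), Bgn (biglycan), Aspn (asporin), Lum (lumican), Fmod (fibromodulin), Prelp, Ogn (osteoglycin), Podn (podocan) and Vcan (versican). They were chosen by name, and each matched 1 of the 35122 Ensembl genes in the deposited table. All 9 were among the 13925 genes with enough counts to be tested. RNA came from the floating adipocyte fraction of epididymal fat, separated by collagenase digestion and centrifugation, with 1 library per mouse. The 6 animals were male C57BL/6 mice on chow, and the sample labels give their age as 10 to 11 months. The 3 control mice were PU.1 fl/fl, with a floxed exon of Spi1 on both alleles and no Cre. The 3 aPU.1KO mice were AdipoqCre PU.1 fl/fl and carried the same floxed alleles, so that the groups differed by the Cre transgene and the deletion it makes. Per the paper the controls were littermates, but the labels used here do not tie mice to litters. The adiponectin promoter drives that Cre, which limits the deletion to cells that use this promoter, and Spi1 in other cells of the fraction is not its target. Mice are numbered 1 to 3 within a group only to name them.

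PU.1 is an ETS family transcription factor best known from macrophages and other blood cells. Small leucine-rich proteoglycans have a core protein built of leucine-rich repeats, which binds collagen fibrils and sets their spacing and thickness, and many of them carry chondroitin, dermatan or keratan sulfate chains. Several also bind growth factors such as TGF-beta. Versican binds hyaluronan at its amino-terminal end and carries chondroitin sulfate chains along its middle. In fat, fibroblasts and adipose progenitors are well known sources of decorin and lumican, and a floating adipocyte layer can carry such cells along.

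The genes lie on 5 chromosomes in the GRCm38 annotation (GENCODE M21), and several are neighbours. Dcn (ENSMUSG00000019929; chromosome 10, 97479609 to 97518143, plus strand) and Lum (ENSMUSG00000036446; chromosome 10, 97565128 to 97572703, plus strand) are 46984 bp apart. Aspn (ENSMUSG00000021388; chromosome 13, 49544443 to 49567565, plus strand) and Ogn (ENSMUSG00000021390; chromosome 13, 49608046 to 49624501, plus strand) share a cluster, in which Omd lies between them. Prelp (ENSMUSG00000041577; chromosome 1, 133910304 to 133921414, minus strand) and Fmod (ENSMUSG00000041559; chromosome 1, 134037254 to 134048277, plus strand) are 115839 bp apart. Bgn (ENSMUSG00000031375; chromosome X, 73483602 to 73495933, plus strand), Podn (ENSMUSG00000028600; chromosome 4, 108014791 to 108096445, minus strand) and Vcan (ENSMUSG00000021614; chromosome 13, 89655312 to 89742509, minus strand) lie apart from these clusters. Exons of Prelp overlap those of Gm15851 on the opposite strand over 350 bp, and exons of Aspn overlap those of Cenpp over 7 bp, where reads of both genes cannot be assigned by position if strand was not used. The sources used here do not say whether it was.

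Promoter sequences were taken from RefSeq (GRCm38.p6), from 250 bases before to 50 bases after a start site, and 7 of the 9 genes matched, with 8 promoters in all. The table has no entry for Dcn or Lum. The letters GAGGAAGT, a form of the purine-rich element that PU.1 is known to bind, and its reverse complement ACTTCCTC were in 3.2% of 32851 promoters and in 0 of these 8. The shorter ETS core GGAAGT or ACTTCC, part of the longer form, was in 23.8% of all promoters and in 2 of the 8, those of Aspn and Podn. TATAAA or TTTATA was in 13.6% of all promoters and in 2 of the 8, those of Aspn and Ogn. The promoters of Aspn, of Podn and of Vcan are shown because these 3 genes cover the 2 matches to the core, a lower and a higher level in aPU.1KO mice, and a promoter with no match. They are written 5′ to 3′ on the gene's strand, in lower case, and capitals mark matches to GGAAGT or TATAAA on either strand. In the Aspn promoter TATAAA stands at position -207, TTTATA at -178 and ACTTCC at -62, and in the Podn promoter GGAAGT stands at -181, counted from the start site to the 5′ end of each match. Podn has a pair of promoters in the table, and the one that holds the match is shown. Binding of PU.1 was not measured here, and a match is a description of letters.
Aspn, chr13:49544193-49544492, plus strand: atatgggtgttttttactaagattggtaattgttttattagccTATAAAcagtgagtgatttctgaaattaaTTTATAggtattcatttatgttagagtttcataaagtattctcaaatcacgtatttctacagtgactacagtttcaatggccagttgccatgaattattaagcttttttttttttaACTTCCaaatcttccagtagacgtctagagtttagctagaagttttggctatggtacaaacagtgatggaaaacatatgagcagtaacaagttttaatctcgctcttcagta
Podn, chr4:108031905-108032204, minus strand: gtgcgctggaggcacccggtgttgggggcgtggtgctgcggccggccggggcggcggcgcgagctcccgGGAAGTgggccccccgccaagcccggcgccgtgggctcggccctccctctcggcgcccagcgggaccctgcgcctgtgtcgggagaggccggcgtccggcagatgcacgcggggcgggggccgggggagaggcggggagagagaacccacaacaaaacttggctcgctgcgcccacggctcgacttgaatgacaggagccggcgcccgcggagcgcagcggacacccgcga
Vcan, chr13:89742463-89742762, minus strand: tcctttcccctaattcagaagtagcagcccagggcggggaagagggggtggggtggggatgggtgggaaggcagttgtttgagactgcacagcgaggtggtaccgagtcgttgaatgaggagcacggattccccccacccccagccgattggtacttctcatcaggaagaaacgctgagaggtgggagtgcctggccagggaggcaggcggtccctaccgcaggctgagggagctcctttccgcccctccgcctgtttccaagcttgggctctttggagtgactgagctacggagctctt

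Libraries held between 20550252 and 24310144 estimated counts, except that of control mouse 1, which held 69283842. Spi1 itself was at 24.3, 6.35 and 26.7 CPM (counts scaled to a common library size with TMM factors) in control mice 1 to 3 and at 3.20, 1.22 and 4.17 in aPU.1KO mice 1 to 3, a log2 fold change of -2.75 (SE 0.64, edgeR adjusted p = 0.0788), where reads of exons that are not floxed are counted too. The control library with little Spi1, that of mouse 2, was also the lowest of the 3 controls in the summed CPM of macrophage and of fibroblast markers, although 4 of the 12 fibroblast markers did not have their lowest control value there (Dpp4, Islr, Pi16 and Cd34). The library of aPU.1KO mouse 2 stood apart in other ways, with 9.38% of its counts on the mitochondrial chromosome against 4.34% to 6.23% in the other 5. In what follows, p-values come from the quasi-likelihood test of edgeR. An adjusted p is corrected by the Benjamini-Hochberg method for 13925 tested genes, and a negative log2 fold change means a lower level in aPU.1KO mice.

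Of the 9 genes, 8 had lower fitted levels in aPU.1KO mice and Podn was higher, while 48.0% of all genes tested were lower. The median log2 fold change of the 9 was -0.82, beside 0.01 over all genes. None of the 8 lower genes passed an adjusted p of 0.05 in edgeR, where 0.18% of all genes did so in this direction. At an unadjusted p of 0.05, 6 of the 9 were lower (Dcn, Bgn, Aspn, Lum, Fmod and Vcan), against 13.7% of all genes, and Podn was the 1 gene higher, against 11.9%. DESeq2, which the paper used, was run here as an alternative on the same counts. It called 5 lower at an adjusted p of 0.05 (Dcn, Bgn, Aspn, Lum and Vcan), against 8.73% of all genes, and Podn higher, against 4.69%. Every aPU.1KO library lay below every control library for 4 genes (Dcn, Lum, Aspn and Vcan), and 15.5% of all genes were separated in this way. Podn alone was separated in the other direction, as were 16.7% of all genes. The genes were chosen with earlier results of these data known, so these counts are a description.

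**Figure D1:**
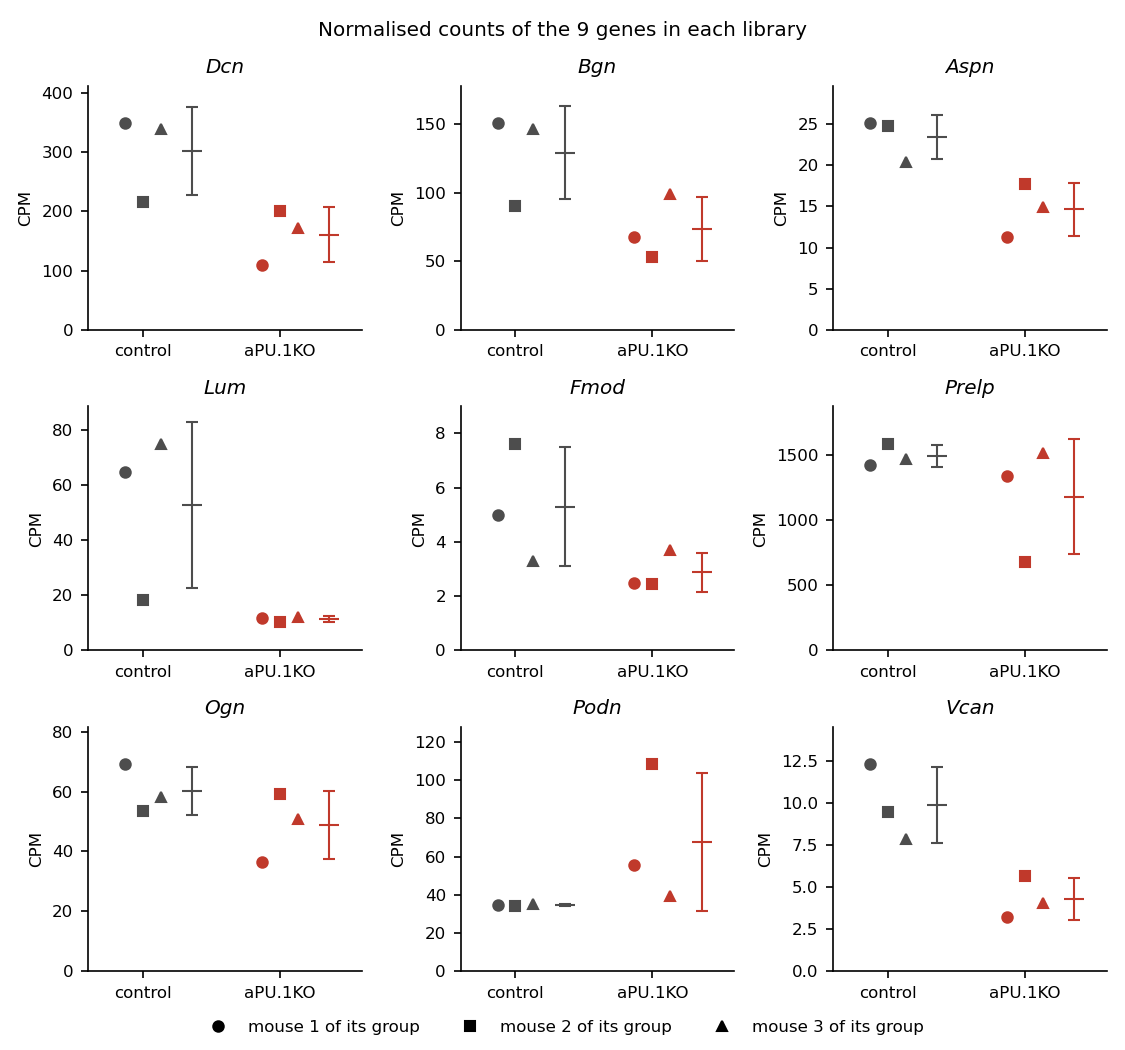
CPM of the 9 genes (vertical axes, each from 0) in the 3 control and 3 aPU.1KO libraries; symbols mark the mouse within its group, and the bar beside the points is the mean ± SD. Dcn, Aspn, Lum and Vcan are lower in every aPU.1KO library than in every control library, and Podn is higher, with aPU.1KO mouse 2 at 108.5 CPM.

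Decorin, biglycan and asporin form class I of the family, and decorin and biglycan carry chondroitin or dermatan sulfate. Dcn had 348.9, 216.7 and 339.7 CPM in control mice 1 to 3 and 109.8, 200.2 and 172.6 CPM in aPU.1KO mice 1 to 3. The groups did not overlap, but the gap between control mouse 2 and aPU.1KO mouse 2 was narrow. Means were 301.8 ± 73.8 and 160.8 ± 46.3 CPM (SD, n = 3 each), and the fitted level was 46.7% lower in aPU.1KO mice. The log2 fold change was -0.91 (SE 0.27), with an edgeR unadjusted p of 0.0117 and an adjusted p of 0.105. Without control mouse 2 the log2 fold change of Dcn was -1.11 and its edgeR adjusted p 0.0453, and with any other library left out that p was 0.130 to 0.380.

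Bgn, a close relative of decorin that is also known as a ligand of Toll-like receptors when free of the matrix, had 150.9, 90.5 and 147.0 CPM in the control mice. In aPU.1KO mice it had 68.0, 53.5 and 99.0 CPM. The groups overlapped, because control mouse 2 lay below aPU.1KO mouse 3. Its fitted level was 43.3% lower, a log2 fold change of -0.82 (SE 0.28), with an edgeR adjusted p of 0.131. Aspn, which binds collagen and TGF-beta and is named for a stretch of aspartates near its amino-terminal end, had 25.1, 24.8 and 20.4 CPM in the control mice and 11.3, 17.7 and 15.0 CPM in aPU.1KO mice. Its groups did not overlap, and control mouse 2 was close to control mouse 1, unlike for Dcn and Bgn. The log2 fold change of Aspn was -0.68 (SE 0.18, edgeR adjusted p = 0.0922), a level 37.4% lower.

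Lumican, fibromodulin and PRELP belong to class II, whose best known members carry keratan sulfate. Lum, a regulator of collagen fibrils in cornea and skin, had the largest log2 fold change of the 9 in either direction. Its levels were 64.9, 18.4 and 75.1 CPM in the control mice and 11.9, 10.3 and 12.1 CPM in aPU.1KO mice. The aPU.1KO libraries were close to each other and all below the controls, of which mouse 2 was far below the other pair. Means were 52.8 ± 30.2 and 11.4 ± 0.990 CPM (SD, n = 3 each), and the log2 fold change was -2.21 (SE 0.48), a level 78.4% lower with a 95% interval of -3.36 to -1.06 on the log2 scale. The edgeR adjusted p was 0.0783. Without control mouse 2, the log2 fold change of Lum was -2.62 and its edgeR adjusted p 0.00200, in a fit where 1193 genes passed in place of 33. With any other library left out, the edgeR adjusted p of Lum was 0.104 to 0.313. Over all genes tested the log2 fold change of Lum was at percentile 1.86.

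Fmod, which binds the same region of collagen as lumican, was scarce, with 49 to 78 counts in the aPU.1KO libraries. It had 4.999, 7.62 and 3.29 CPM in the control mice and 2.49, 2.44 and 3.69 CPM in aPU.1KO mice. Here control mouse 2 was the highest of all 6 libraries, the opposite of its place for Dcn, Bgn and Lum, and control mouse 3 lay below aPU.1KO mouse 3. The log2 fold change was -0.88 (SE 0.35, edgeR adjusted p = 0.173), and without control mouse 2 it was -0.55. Prelp, which binds collagen and the heparan sulfate of basement membranes, had 1429.7, 1589.7 and 1468.6 CPM in the control mice and 1343.2, 680.4 and 1518.7 CPM in aPU.1KO mice. Its groups overlapped, and aPU.1KO mouse 2 alone was far from the other 5 libraries. The log2 fold change of Prelp was -0.34 (SE 0.28, edgeR adjusted p = 0.481), with a 95% interval of -1.01 to 0.33. Without aPU.1KO mouse 2 it was -0.07, and without aPU.1KO mouse 3 it was -0.56.

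Osteoglycin, of class III, was first described in bone and is made in many connective tissues. Ogn had 69.2, 53.5 and 58.1 CPM in the control mice and 36.6, 59.1 and 50.8 CPM in aPU.1KO mice, and the groups overlapped. It had a log2 fold change of -0.30 (SE 0.19, edgeR adjusted p = 0.343), with a 95% interval of -0.74 to 0.14, and it was -0.14 without aPU.1KO mouse 1 and -0.47 without aPU.1KO mouse 2.

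Podocan is a member outside these classes that binds collagen and has been described to restrain the growth of smooth muscle cells. Podn had 34.5, 34.0 and 35.1 CPM in the control mice, whose SD of 0.542 CPM was small beside the mean of 34.6 CPM. In aPU.1KO mice it had 55.6, 108.5 and 39.1 CPM. Every aPU.1KO library was above every control library, mouse 3 by little and mouse 2 by much. The log2 fold change was 0.97 (SE 0.34), a 1.96-fold higher level with a 95% interval of 0.15 to 1.79 on the log2 scale, and the edgeR adjusted p was 0.144. Without aPU.1KO mouse 2 the log2 fold change of Podn was 0.45. Its place over all genes tested was percentile 98.6.

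Versican is a lectican, not a leucine-rich proteoglycan, and is known to be made by mesenchymal cells and by activated myeloid cells. Vcan had 12.3, 9.46 and 7.81 CPM in the control mice and 3.20, 5.65 and 4.03 CPM in aPU.1KO mice. The groups did not overlap, and control mouse 2 lay between the other controls. Means were 9.85 ± 2.26 and 4.29 ± 1.25 CPM (SD, n = 3 each), and the log2 fold change was -1.20 (SE 0.27), a level 56.5% lower with an edgeR adjusted p of 0.0783. The counts behind the aPU.1KO values were 63, 125 and 85. Leaving out any 1 library kept the log2 fold change of Vcan between -1.45 and -1.02. The counts are per gene, so the splice forms of Vcan, which differ in how much chondroitin sulfate they can carry, were not separated.

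**Figure D2:**
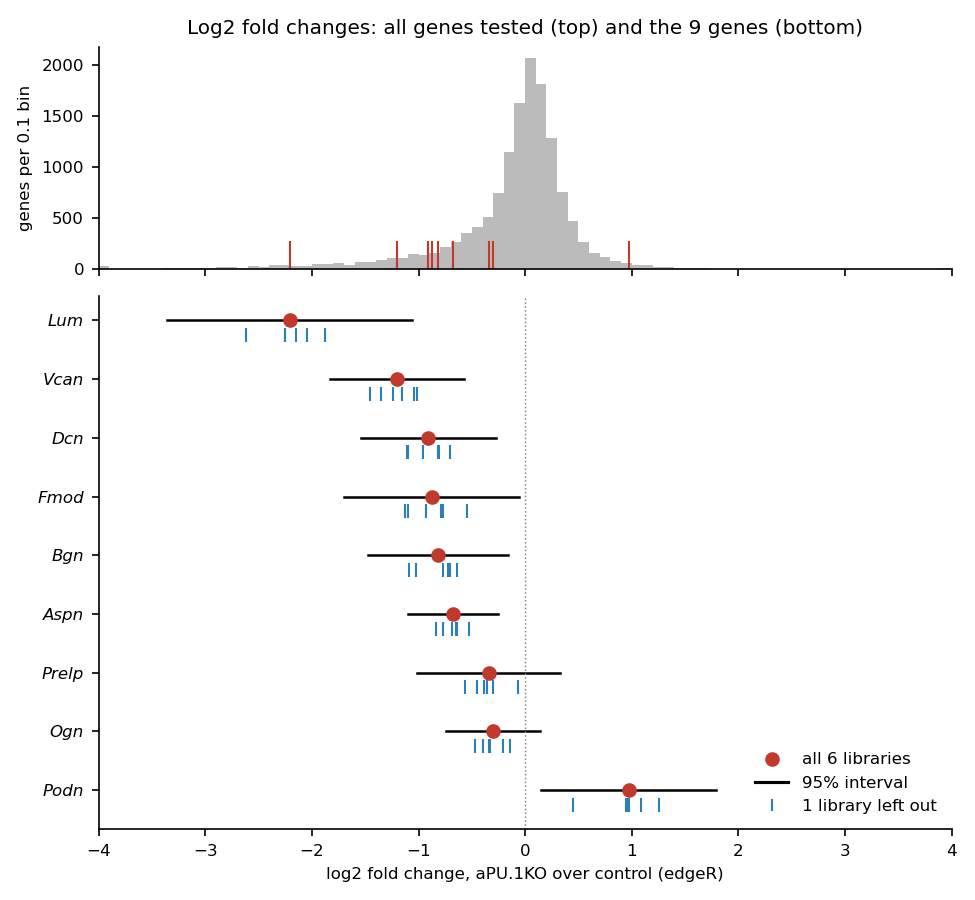
Log2 fold change, aPU.1KO over control (horizontal axis), with the number of genes in each bin for all 13925 genes tested (top; values beyond 4 in either direction are drawn in the outermost bins, and red ticks mark the 9 genes) and for the 9 genes (bottom; red point, edgeR value from all 6 libraries; line, 95% interval; blue ticks, values with 1 library left out). Lum is at -2.21 and Podn at 0.97, and the blue ticks of each gene stay on 1 side of 0.

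Levels of different genes were compared per length, as CPM divided by kilobases of exon (RPKM). In the control mice Prelp was at 413.8 ± 23.1 RPKM (SD, n = 3), above all libraries of Dcn at 51.7 ± 12.6. Ogn (23.5 ± 3.16), Lum (21.6 ± 12.4) and Bgn (21.2 ± 5.54) followed, and neighbours among these 3 overlapped in their ranges. Aspn (9.96 ± 1.13), Podn (8.09 ± 0.127), Fmod (1.604 ± 0.659) and Vcan (0.681 ± 0.156) came last, with no overlap between neighbours in this order. In aPU.1KO mice Prelp was again highest, at 326.6 ± 122.3 RPKM, then Dcn at 27.6 ± 7.93 and Ogn at 19.0 ± 4.44. Unlike in the control mice, the ranges of Dcn and Ogn overlapped. Podn came to rank 4 at 15.9 ± 8.49 RPKM, although its range overlapped those of Ogn and Bgn (12.0 ± 3.81), and without aPU.1KO mouse 2 its mean was 11.1 RPKM, below Bgn at 13.7 RPKM. Lum came to rank 7, at 4.67 ± 0.404 RPKM, after Aspn at 6.23 ± 1.36, with overlapping ranges. Fmod (0.870 ± 0.215) and Vcan (0.297 ± 0.0861) stayed last. These lengths are of all annotated exons, and with the longest transcript instead Bgn stood at rank 3 in both groups, at 48.6 RPKM in control and 27.6 RPKM in aPU.1KO mice, and Podn in the control mice, at 9.50 RPKM, was within 1 SD of Aspn at 10.1 ± 1.14 RPKM.

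**Figure D3:**
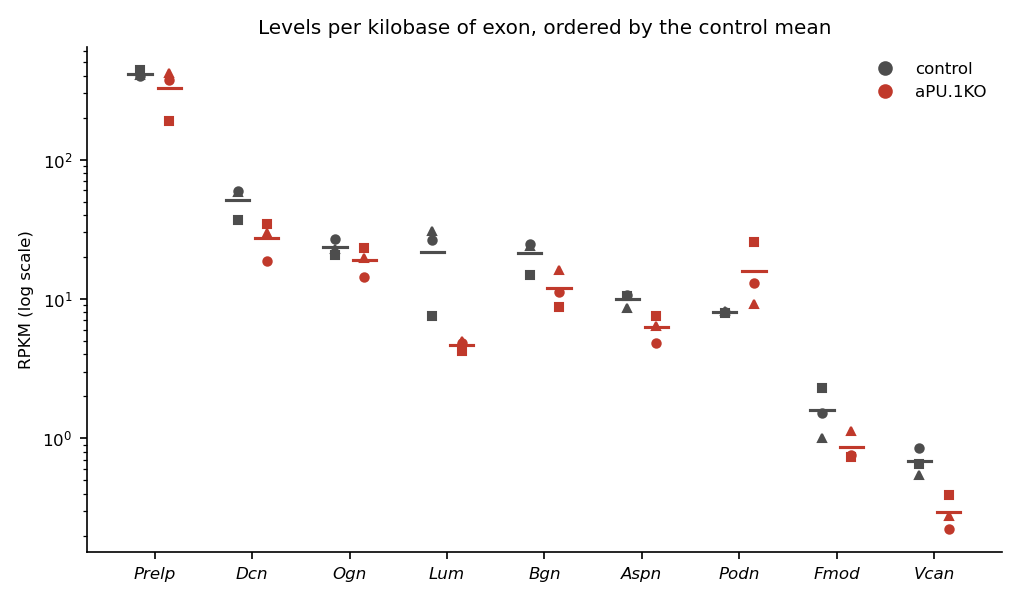
RPKM of the 9 genes on a log scale, ordered by the control mean, in control (grey) and aPU.1KO (red) libraries; circles, squares and triangles are mice 1, 2 and 3 of a group, and the horizontal bars are group means. Prelp is highest in both groups, and Lum moves from 21.6 RPKM in control to 4.67 RPKM in aPU.1KO mice.

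Prelp made up most of the summed RPKM of the 9 genes, 75.0% ± 5.40 in control and 77.2% ± 11.2 in aPU.1KO mice (SD, n = 3 each). The share of Lum was 3.88% ± 2.19 in control and 1.17% ± 0.239 in aPU.1KO mice, and that of Podn was 1.47% ± 0.00642 and 4.48% ± 3.68. The difference for Podn, 3.02 percentage points, was 0.918 without aPU.1KO mouse 2. An exact two-sided permutation test of 3 against 3 cannot give a p below 0.1. Podn reached that p of 0.1, Lum had an exact p of 0.2 and Prelp an exact p of 0.8, and adjusted over the 9 shares these exact permutation p-values were 0.675, 0.675 and 0.9. The summed RPKM was 554.6, 541.5 and 560.3 in the control mice and 439.5, 292.6 and 507.6 in aPU.1KO mice. With Prelp left out it was 159.1, 101.8 and 154.0 in the control mice and 67.9, 104.4 and 87.5 in aPU.1KO mice, so that control mouse 2 then lay below aPU.1KO mouse 2.

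Ratios within a library are given for 6 pairs of genes, chosen after their values were seen, as a description with no test. The Podn to Lum ratio of CPM was 0.532, 1.85 and 0.467 in the control mice and 4.68, 10.5 and 3.22 in aPU.1KO mice, with no overlap and a mean log2 difference of 2.81. The Podn to Dcn ratio was 0.0990, 0.157 and 0.103 in the control mice and 0.506, 0.542 and 0.226 in aPU.1KO mice, also without overlap. The Ogn to Aspn ratio, of 2 genes of 1 cluster on chromosome 13, was 2.76, 2.15 and 2.85 in the control mice and 3.23, 3.34 and 3.40 in aPU.1KO mice, again without overlap. The Lum to Dcn ratio, of the neighbours on chromosome 10, was 0.186, 0.0848 and 0.221 in the control mice and 0.108, 0.0515 and 0.0703 in aPU.1KO mice, and the groups overlapped. So did the Prelp to Dcn ratio, which was 4.10, 7.34 and 4.32 in the control mice and 12.2, 3.40 and 8.80 in aPU.1KO mice. The Fmod to Prelp ratio overlapped too, at 0.00350, 0.00479 and 0.00224 in the control mice and 0.00185, 0.00359 and 0.00243 in aPU.1KO mice.

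Relatives of these genes that lie in the same 3 clusters ranged from not detected to moderately expressed. Kera, 34175 bp from Lum, had no count in any library, which allows up to 0.0413 to 0.152 CPM per library, taking 3 counts as the limit of a count of 0. Epyc, 30375 bp from Kera, had 10, 3 and 2 counts in the control mice and 0 in each aPU.1KO mouse and was not tested. Omd, between Aspn and Ogn, was at 0.14 to 0.31 CPM and was not tested. Ecm2, a relative 11653 bp from Aspn, was at 14.7, 12.6 and 12.1 CPM in the control mice and at 5.84, 8.995 and 8.76 CPM in aPU.1KO mice, without overlap, with a log2 fold change of -0.74 (SE 0.19, edgeR adjusted p = 0.0909). Optc, 2304 bp from Prelp, was at 2.38 to 3.56 CPM over the 6 libraries, with a log2 fold change of 0.14 (edgeR adjusted p = 0.742).

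Among the other genes of the family and the lecticans, 4 of 12 had enough counts to be tested, 3 were lower and 1 higher, and none passed the edgeR adjusted p of 0.05 (DESeq2 called 2 lower, against 8.73% of all genes). Ncan, the lectican neurocan, was among the lower genes, with a log2 fold change of -0.64 (edgeR adjusted p = 0.0766). Aggrecan (Acan) had no count in any library. Of 22 genes for the synthesis of chondroitin and dermatan sulfate chains, 17 were lower and 5 higher, none at an edgeR adjusted p of 0.05, 4 lower at an unadjusted p of 0.05 (13.7% of all genes) and 3 lower in DESeq2 (8.73% of all genes). Xylt1, which starts the chains, had a log2 fold change of -0.63 (edgeR adjusted p = 0.0786, and so in the other brackets), Csgalnact1, which commits them to chondroitin, -0.74 (0.109), and Dse, the epimerase that makes dermatan, -0.51 (0.0810). The median of these 22 genes was -0.18, beside -0.82 for the 9 core proteins.

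Of 5 tested genes for the synthesis of keratan sulfate chains, 3 were lower and 2 higher. Chst1, a keratan sulfate sulfotransferase, was at 102.3, 149.8 and 83.1 CPM in the control mice and 163.4, 223.4 and 185.4 CPM in aPU.1KO mice. No library of either group overlapped the other, and the log2 fold change was 0.77 (SE 0.23, edgeR adjusted p = 0.106). B3gnt2 was at -0.65 (edgeR adjusted p = 0.259) and B4galt1 at 0.25 (0.551), enzymes that can extend the repeating disaccharide chain. The value of B4galt1 rested on aPU.1KO mouse 2, at 96.0 CPM, while the other aPU.1KO mice had 49.8 and 54.7 CPM and the controls 53.1 to 58.7 CPM.

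Of 14 tested genes for hyaluronan, the ligand of versican, 12 were lower and 2 higher, none at an edgeR adjusted p of 0.05, with 4 lower and 1 higher at an unadjusted p of 0.05 (13.7% and 11.9% of all genes) and 2 lower in DESeq2 (8.73% of all genes). Cd44, a hyaluronan receptor found on many cells and abundant on leukocytes, was at 88.7, 33.1 and 76.4 CPM in the control mice and 22.3, 7.32 and 20.1 CPM in aPU.1KO mice, with a log2 fold change of -2.001 (SE 0.50, edgeR adjusted p = 0.0868). Has1, a hyaluronan synthase, had a log2 fold change of -1.78 (edgeR adjusted p = 0.161). Tnfaip6, which cross-links hyaluronan, was at 12.5, 27.3 and 1.56 CPM in aPU.1KO mice 1 to 3, beside 6.57 to 7.79 CPM in the controls, so that its log2 fold change of 0.95 (edgeR adjusted p = 0.484) rested on a wide spread.

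A list of proteases that cut these core proteins, proteins that process collagen propeptides and the protease inhibitor Timp3 (log2 fold change -0.14) held 15 tested genes, of which 13 were lower, none at an edgeR adjusted p of 0.05, 7 at an unadjusted p of 0.05 (13.7% of all genes) and 6 in DESeq2 (8.73% of all genes), with a median of -0.52. Mmp14, a membrane-bound metalloproteinase, had a log2 fold change of -1.55 (edgeR adjusted p = 0.0722), Mmp2, which it activates, -1.51 (0.0873), and Pcolce, an enhancer of procollagen cleavage, -1.83 (0.0792). Control mouse 2 was the lowest control for all 3, as for Lum.

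Binding partners of the core proteins were lower for 17 of 20 tested genes, with a median of -0.62, and 2 of them fell at an edgeR adjusted p of 0.05, the share of all genes being 0.18%. At an unadjusted p of 0.05, 12 were lower and 1 higher (13.7% and 11.9% of all genes). DESeq2 called 10 lower (8.73% of all genes). Fbn1, the microfibril protein fibrillin-1, which binds versican, fell from 82.2, 73.8 and 50.7 CPM in the control mice to 17.1, 20.3 and 17.6 CPM in aPU.1KO mice, a log2 fold change of -1.91 (SE 0.19, edgeR adjusted p = 0.0268). Egfr, a receptor that decorin binds, fell from 76.0, 74.4 and 75.1 CPM to 53.8, 53.4 and 54.3 CPM, a log2 fold change of -0.48 (SE 0.06, edgeR adjusted p = 0.0491). Neither group varied much in Egfr. Met, another receptor in this list, was higher, with a log2 fold change of 0.60 (SE 0.24, edgeR unadjusted p = 0.0387, adjusted p = 0.172). Fibronectin (Fn1) had a log2 fold change of -1.69 (edgeR adjusted p = 0.0627) and fibulin-1 (Fbln1), a partner of versican, -1.40 (0.0773).

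**Figure D4:**
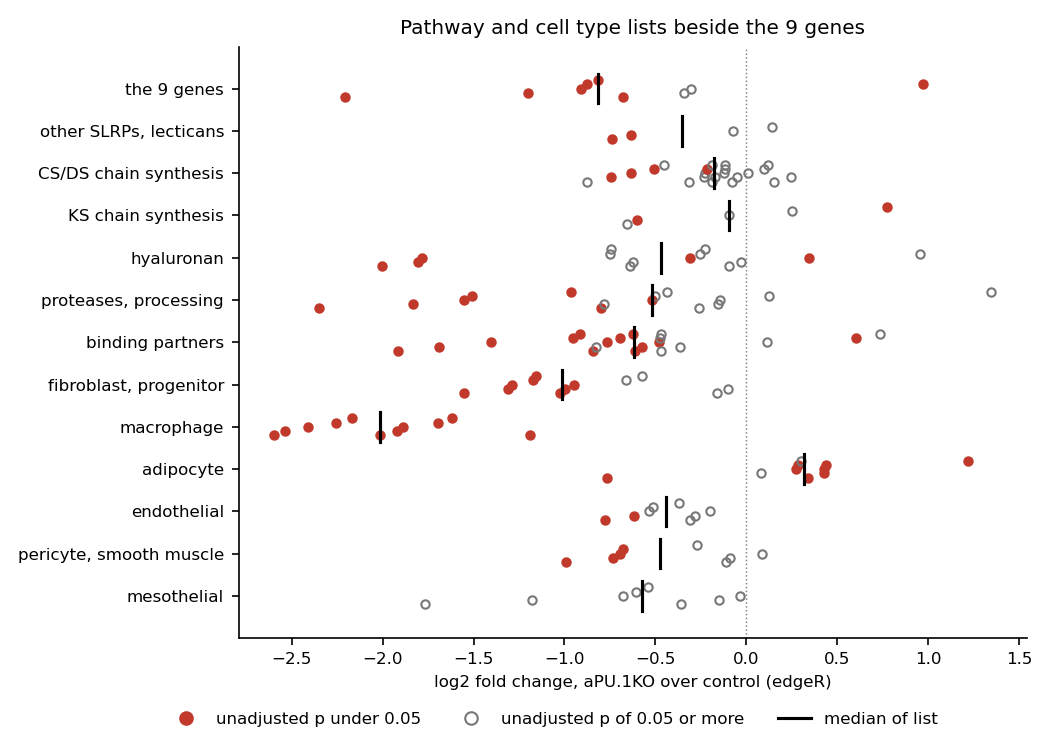
Log2 fold change, aPU.1KO over control (horizontal axis), of each tested gene (point) in the lists of proteoglycan biology and of cell type markers (rows); filled red points have an edgeR unadjusted p under 0.05, and the black bar is the list's median. CS is chondroitin sulfate, DS dermatan sulfate, KS keratan sulfate and SLRP small leucine-rich proteoglycan; the medians run from -2.01 for macrophage markers to 0.32 for adipocyte markers, with -0.82 for the 9 genes.

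Markers of other cells moved with the same groups. All 12 markers of fibroblasts and adipose progenitors had lower fitted levels in aPU.1KO mice, with a median of -1.01. At an unadjusted p of 0.05, 8 of the 12 were lower (13.7% of all genes), and DESeq2 called 8 lower (8.73% of all genes). In edgeR 1 passed an adjusted p of 0.05 (0.18% of all genes). This was Pdgfrb, a growth factor receptor, with a log2 fold change of -0.95 (SE 0.12, edgeR adjusted p = 0.0491). The summed CPM of these markers was 1165.0, 834.2 and 1383.8 in the control mice and 484.0, 578.2 and 606.1 in aPU.1KO mice, without overlap and with mouse 2 the lowest control. All 11 macrophage markers were lower too, with a median of -2.01. In edgeR 1 of the 11 passed an adjusted p of 0.05 (0.18% of all genes). All 11 were lower at an unadjusted p of 0.05 (13.7% of all genes) and in DESeq2 (8.73% of all genes). Their summed CPM was 1525.2, 430.8 and 1478.3 in the control mice and 305.2, 213.3 and 280.5 in aPU.1KO mice, and Mrc1, a mannose receptor of resident macrophages, fell with a log2 fold change of -1.70 (SE 0.19, edgeR adjusted p = 0.0389). Both lists held markers in every library, and no marker of either list was at 0. Their part in the lower levels of the 9 genes was not tested. In whole-fraction RNA, fewer cells of a type and less RNA per cell cannot be told apart.

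The fraction held the adipocyte markers it is named for, with a summed CPM of 29638 to 32792 in the control mice and 35171 to 38354 in aPU.1KO mice. Of these 10 markers 9 were higher and Lep, the gene of leptin, was lower (log2 fold change -0.77). At an unadjusted p of 0.05, 7 were higher (11.9% of all genes) and Lep was the 1 lower (13.7% of all genes). DESeq2 called 7 higher (4.69% of all genes), and none passed an edgeR adjusted p of 0.05. Endothelial markers were lower for 8 of 8 tested genes (median -0.44), pericyte and smooth muscle markers for 7 of 8 (-0.47), mesothelial markers for 8 of 8 (-0.57) and lymphocyte markers for 3 of 3 (-0.88). The summed CPM of each of these 4 lists overlapped between the groups, and none of their genes passed an edgeR adjusted p of 0.05. At an unadjusted p of 0.05, 4 pericyte and smooth muscle, 2 endothelial, 1 lymphocyte and 0 mesothelial markers were lower (13.7% of all genes), and DESeq2 called 3, 1, 0 and 0 of them lower (8.73% of all genes). The mesothelial sum was 5.31 to 23.9 CPM in the control mice and 8.49 to 10.6 CPM in aPU.1KO mice.

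Genes whose levels ran most like the mean of the 9, over the 6 libraries and among 11888 genes compared, were Clec10a (Pearson's r = 0.997), Plxna4 (0.997), Cttnbp2nl (0.996), Cdk19 (0.995) and Lama2 (0.993). These 6 points share the split into 2 groups, so any gene that follows the split has a high r. Clec10a, a lectin of macrophages and dendritic cells, was at 27.7, 18.4 and 21.3 CPM in the control mice and 6.56, 10.3 and 9.90 CPM in aPU.1KO mice. Lama2, a laminin chain of basement membranes, was at 47.0, 36.5 and 41.6 CPM in the control mice and 12.6, 20.02 and 19.5 CPM in aPU.1KO mice. The mean of the standardised levels of the 9 genes that they followed was 0.81, 0.34 and 0.45 in the control mice and -0.90, -0.38 and -0.31 in aPU.1KO mice.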

How the data were processed

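RNA-seq of the epididymal adipocyte fraction of 3 control and 3 aPU.1KO mice was used, 1 library per mouse. The authors quantified reads with Salmon (option validateMappings) and summed transcripts to genes, and the deposited values are estimated counts per Ensembl gene, whole numbers without normalization. The paper tested differential expression with DESeq2. The submitters' processing notes also name FastQC and the build GRCm38. The Salmon version and the annotation are not given in the sources used here. Of 35122 genes, 35031 matched a symbol in GENCODE M21, and unmatched genes hold 0.0367% of the counts. The paper gives an age of more than 1 year, unlike the labels.

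For the test of aPU.1KO against control, edgeR 4.0.16 ran in R 4.3.3. Genes were kept by filterByExpr and scaled by TMM, dispersions came from estimateDisp, and glmQLFit (default settings) and glmQLFTest gave p-values, which were adjusted by Benjamini-Hochberg across the 13925 genes kept. With total counts of 20550252 or more, counting error is small for most genes, and 3 mice per group limit precision. CPM were scaled by TMM factors, and log2 CPM used a prior count of 2. RPKM values used the summed exon length. Exact two-sided permutation tests were run for shares.

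The members and the gene lists were chosen with earlier results of these data known. Named were all 9 genes, Spi1, from each list the genes with an adjusted p under 0.05 together with up to 3 genes of the largest log2 fold change in either direction (average log2 CPM of at least 1), and the 5 genes of most like pattern. Of the genes named for their place beside a member, and of Acan and Met, the choice was made after their values were seen. Marker genes without an edgeR adjusted p under 0.05 are mostly given as sums and counts.

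The pipeline was tested on simulated data. Alternatives were DESeq2 1.42.0, limma-voom (limma 3.58.1), RLE and upper quartile factors, other filters on low counts, robust dispersion, legacy = FALSE, control library 1 thinned to the depth of the others, the longest transcript as length, and leaving out each library. Protein sequences were not used here.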

Additional observations from a re-analysis of the deposited data

How the results depend on the processing

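The direction of the log2 fold change of each of the 9 genes was kept in all 15 alternatives, and the median of the 9 ran from -0.96 to -0.64 when 1 library was left out and from -0.84 to -0.80 otherwise. The count of genes called lower at an adjusted p of 0.05 went from 0 in edgeR to 5 in DESeq2, which called 1869 genes in all where edgeR called 33, and ran from 0 to 2 when 1 library was left out, with Dcn and Lum called without control mouse 2, where 1193 genes passed in all. Without control mouse 1 no gene passed, although 1718 had an unadjusted p under 0.05. The number of the 9 genes with every aPU.1KO library below every control library ran from 4 to 7 when 1 library was left out, with 7 without aPU.1KO mouse 3. With CPM held fixed, leaving out a library can only keep or raise this count, although CPM were scaled anew in each set. The share over all genes was not computed for these smaller sets. The difference in share of summed RPKM, aPU.1KO minus control in percentage points, changed sign with single libraries left out for Ogn (0.757 in all mice, -0.677 to 1.64, negative without aPU.1KO mouse 2), Prelp (2.21 in all mice, -1.46 to 8.65, and negative without aPU.1KO mouse 1 or, at -0.568, mouse 3) and Aspn (-0.165 in all mice, -0.631 to 0.107, and positive without aPU.1KO mouse 1 or, at 0.0285, mouse 3). The cause of these shifts was not tested. Other counts of calls were 146 with no filter on low counts, 46 with limma-voom, 38 with legacy = FALSE, 24 with robust dispersion and 5 with at least 10 counts in every library. No paired analysis was possible because the mice carry no number shared between the groups and litters are not labelled.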
